A study of Mus musculus with 20 samples.

Results

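The genes described here encode the muscle acetylcholine receptor and the proteins that gather it or act beside it at the neuromuscular synapse: Chrna1, Chrnb1, Chrnd, Chrng and Chrne for the receptor subunits, Musk and Rapsn for the clustering machinery, and Ache for acetylcholinesterase. Every probe set whose only gene symbol was 1 of these 8 was taken, which gave 10 of the 22690 probe sets on the array, 3 of them for Chrng and 1 for each other gene. Of the 10 probe sets, 7 were bright enough to be tested, and the 3 others, for Chrne, Ache and the dimmest of Chrng, are given by their values alone.

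The cells were C2C12 myotubes, multinucleated fibres formed in culture by an established mouse muscle precursor line, without nerve. Per the series' design text they had differentiated for 96 h in 2% horse serum and were then exposed for 2 h, in 0.5% horse serum, to H2O2 at 1, 10, 100 or 1000 µM, or to none. Each of the 5 groups had 4 Affymetrix Mouse Genome 430A arrays. The labels do not say that the 4 were separate cultures, so each p-value reflects how far these arrays scatter, and that scatter may be technical.

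The muscle receptor is a ring of 5 subunits, and it opens a cation channel when acetylcholine binds. Fetal and denervated muscle builds it with the gamma subunit, and innervated adult muscle replaces gamma by epsilon. Agrin released by the nerve binds LRP4, which activates the receptor tyrosine kinase MuSK, and rapsyn then holds the receptors in dense clusters under the nerve terminal. Transcription of the subunit genes is driven in muscle by myogenic basic helix-loop-helix factors such as MYOD1 and myogenin, which bind E-boxes. Nuclei under the synapse also use ETS-family factors such as GABP, which bind an element called the N-box.

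Promoter sequence was matched for 6 of the 8 genes in RefSeq, assembly GRCm38.p6, and 3 are printed: those of Chrna1, a subunit of fetal and adult receptors alike, Chrng, the fetal subunit, and Chrne, the adult subunit that replaces it. Each is 220 bases long, from 250 to 31 bases before the listed start, 5′ to 3′ on the gene's strand, and capitals mark E-boxes (CANNTG) and, in Chrne alone, the N-box letters CCGGAA. They lie at chr2:73580369-73580588 (minus strand), chr1:87205561-87205780 (plus strand) and chr11:70619225-70619444 (minus strand).
Chrna1: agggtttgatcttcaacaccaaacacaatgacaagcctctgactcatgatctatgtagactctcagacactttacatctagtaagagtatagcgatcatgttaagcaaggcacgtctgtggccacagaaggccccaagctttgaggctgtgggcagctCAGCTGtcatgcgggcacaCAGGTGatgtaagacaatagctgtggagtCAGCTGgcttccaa
Chrng: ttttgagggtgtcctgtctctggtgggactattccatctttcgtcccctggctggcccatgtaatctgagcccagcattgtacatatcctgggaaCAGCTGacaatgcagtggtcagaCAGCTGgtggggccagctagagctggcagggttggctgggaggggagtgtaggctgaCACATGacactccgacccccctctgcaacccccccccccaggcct
Chrne: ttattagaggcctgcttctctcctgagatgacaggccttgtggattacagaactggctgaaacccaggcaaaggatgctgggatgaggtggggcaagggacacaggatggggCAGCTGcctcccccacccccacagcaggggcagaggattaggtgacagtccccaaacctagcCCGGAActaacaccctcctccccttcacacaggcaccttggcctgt
The Chrna1 and Chrng windows each held 3 E-boxes, 2 of them CAGCTG, and the Chrne window held 1 E-box, also CAGCTG, and 1 N-box. Of the matched windows not printed, that of Musk held 3 E-boxes, 1 of them CAGCTG. That of Chrnb1 held 2 E-boxes and that of Ache 1, with 0 CAGCTG in either. Both strands were searched, and no E-box overlapped the N-box. Of 32851 RefSeq promoter windows of the same length, 62.1% held CANNTG, 11.4% held CAGCTG, and 9.47% held CCGGAA or its complement TTCCGG. These are letter matches and no binding was measured.

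The deposited signals shared a scale, with a 2% trimmed mean of 500.1 to 500.2 on each of the 20 arrays. The 5 arrays named replicate 1 here stood apart from the other 15 on the first principal component, which took 28.2% of the variance. The title of 1 of them, at 10 µM, carries no replicate number, and it was given the number 1 by its order in the series. Each dose has 1 array named replicate 1, and the changes at 1000 µM are also given within replicates 2 to 4. The arrays at 1000 µM had a lower middle than the untreated ones, with a difference of -0.20 between their median log2 signals, so the centre of the scale matters there: of all tested probe sets 354 were called higher and 1220 lower on the deposited scale, 2027 and 407 with each array centred on its median, and 294 and 477 after quantile normalization. The median change of the tested probe sets at 1000 µM was -0.07 on the deposited scale. A change is called, and written as a rise or a fall, at a limma adjusted p under 0.05 over 14379 tested probe sets.

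The cultures carried the markers of myotubes. All 10 myotube markers, among them Myh3, Acta1, Ckm and Des, were tested, and their summed signal was 60862 to 74762 untreated, 76234 to 82160 at 1 µM, 70399 to 94617 at 10 µM, 70394 to 83400 at 100 µM and 79169 to 84309 at 1000 µM. At 1000 µM 1 of them, the troponin gene Tnnt3, rose, and 5 of the 10 were at an unadjusted p under 0.05. The share of all genes at that unadjusted level was not counted, here or for the counts below. No marker call was tried under other scalings or without single arrays. The median difference of the 10 was 0.29, against -0.05 over all genes. The part of the myotubes, and that of the other marked cells, in the results was not tested. Of 7 cycling-cell markers 1 rose and 1 fell at 1000 µM, with 3 at an unadjusted p under 0.05. Of 5 reserve-cell markers 0 rose and 2 fell, with 2 at an unadjusted p under 0.05. Across all genes 2.64% rose and 8.05% fell. Of 5 fibroblast markers 0 were called, with 1 at an unadjusted p under 0.05. Only 2 of 7 nerve and Schwann cell markers on the array were bright enough to test, and neither was called, with 1 at an unadjusted p under 0.05. In such bulk RNA, fewer cells of a kind and less RNA per cell cannot be told apart.

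The alpha subunit gene Chrna1 (1418852_at) was bright on every array at every dose. Its signals in untreated myotubes were 5469, 7488, 7569 and 7202, and at 1000 µM they were 7681, 8254, 8894 and 7721. Each value at 1000 µM lay above each untreated one. The difference was 0.24 (SE 0.11, log2, 95% interval 0.01 to 0.47, n = 4) and was not called (adjusted p = 0.177). The array named 1 was the lowest of its group at 4 of the 5 doses. Between the arrays named 1 the difference was 0.49, within replicates 2 to 4 it was 0.16 (0.274), still without overlap, and without untreated replicate 1 alone it was 0.13 (0.48). The size also depended on the scale: it was 0.44 with median centring, where it was called (adjusted p = 0.0303), and -0.002 after quantile normalization (0.994). The means ± SD (n = 4) in dose order were 6932 ± 988, 7910 ± 307, 7902 ± 1393, 7516 ± 661 and 8137 ± 568. From lowest to highest the order was untreated, 100, 10, 1 and 1000 µM, and neighbours in it differed by less than their spread.

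**Figure D1:**
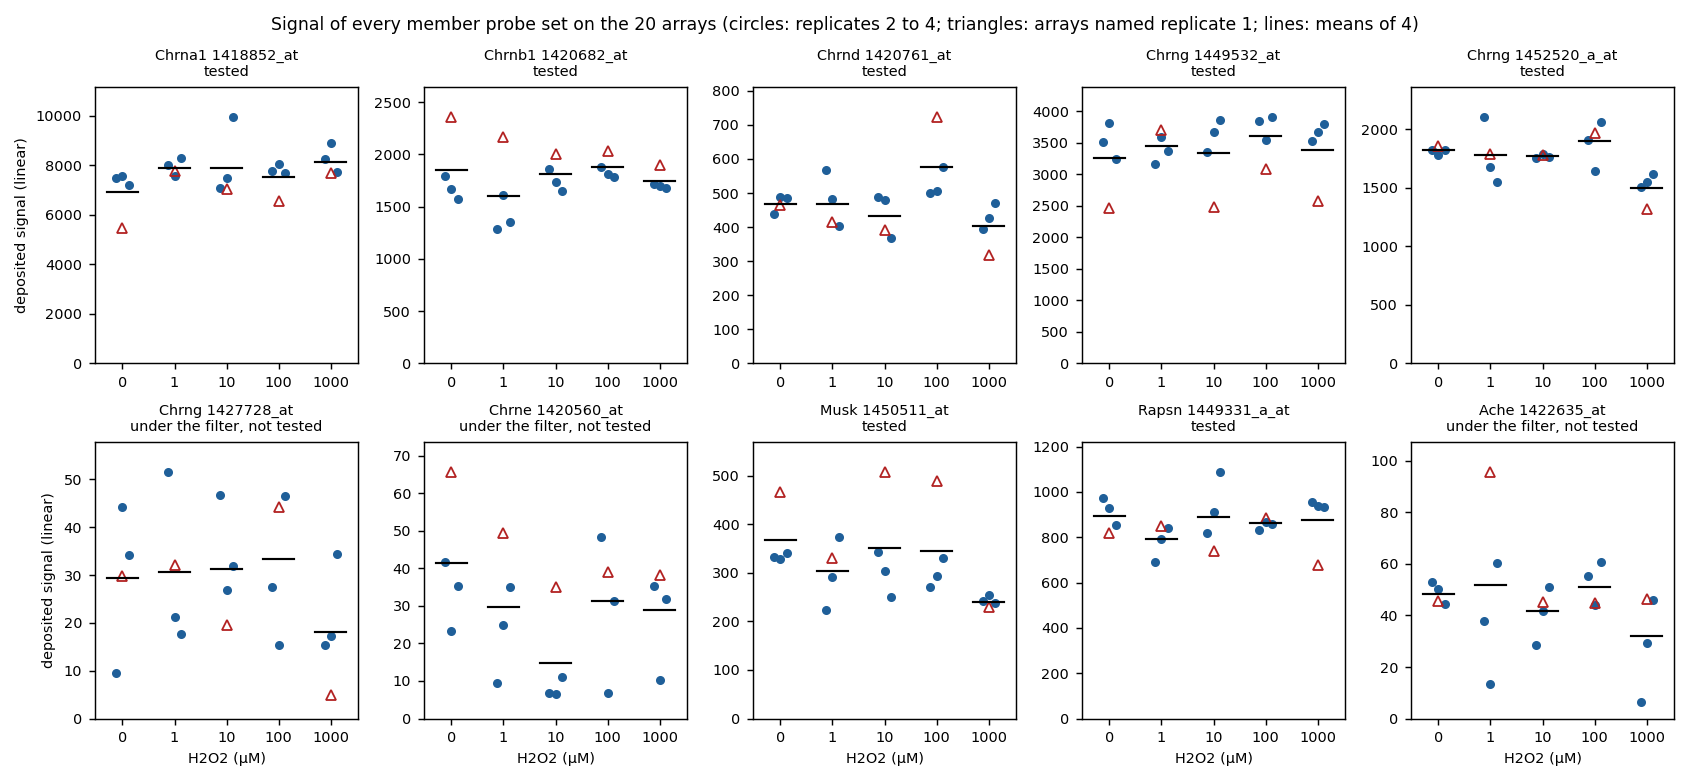
Deposited linear signal (y axis) of the 10 probe sets against H2O2 dose in µM (x axis, categories), with circles for replicates 2 to 4, open triangles for the arrays named replicate 1 and lines for the means of 4. Chrna1 stays between 5469 and 9972 throughout, Chrne stays at or under 65.7, and the Musk signals at 1000 µM, 230 to 254, all lie under the untreated ones.

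Chrng, the fetal gamma subunit, showed called changes on 1452520_a_at and none on its other bright probe set. On 1452520_a_at the untreated signals were 1859, 1826, 1778 and 1820, those at 100 µM were 1971, 1912, 1643 and 2064, and those at 1000 µM were 1315, 1507, 1546 and 1621. Each value at 1000 µM lay below each untreated one and each one at 100 µM. The signal fell by 0.29 on the log2 scale from untreated to 1000 µM (SE 0.09, 95% interval -0.47 to -0.10, adjusted p = 0.0445, n = 4), which is 18.0% lower. From 100 to 1000 µM it fell by 0.34 (SE 0.09, adjusted p = 0.0339). The means ± SD at 0, 1, 10, 100 and 1000 µM were 1821 ± 33.3, 1781 ± 239, 1773 ± 17.4, 1897 ± 181 and 1497 ± 130. The first 4 groups overlapped, and none of the 3 doses under 1000 µM was called against untreated (adjusted p = 0.884 to 0.997).

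That call was close to the threshold. It was kept without 1000 µM replicate 4 (adjusted p = 0.0472) and lost without any other single array: untreated replicates 1 (0.0893), 2 (0.0878), 3 (0.0644) and 4 (0.0833), and 1000 µM replicates 1 (0.125), 2 (0.0858) and 3 (0.0712). Within replicates 2 to 4 the groups still did not overlap, at -0.22 (0.126), and between the arrays named 1 the difference was -0.50. With median centring it was -0.08 (0.597), and after quantile normalization -0.31 (0.0473). The fall from 100 µM was lost within replicates 2 to 4 (-0.26, 0.101), with median centring (-0.22, 0.216) and without any single array (0.0589 to 0.12) except 100 µM replicate 3 (0.0145) or 1000 µM replicate 4 (0.0401).

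The other bright probe set of Chrng, 1449532_at, gave no call. Its signals were 2456, 3515, 3809 and 3241 untreated and 2576, 3522, 3661 and 3795 at 1000 µM, and these groups overlapped. Its difference was 0.06 (SE 0.15, 95% interval -0.24 to 0.37, adjusted p = 0.841), and it turned to -0.04 after quantile normalization and to -0.07 (0.819) without untreated replicate 1. Between the arrays named 1 it was 0.07 and within replicates 2 to 4 it was 0.06 (0.629). Without 1000 µM replicate 1 it was 0.19 (0.441). The changes on both probe sets differed by 0.35 on the log2 scale, which did not pass an exact two-sided permutation test (p = 0.0571, n = 4, where 0.0286 is the smallest possible; adjusted p = 0.0857 over 2 comparisons). Over the 20 arrays, which share scale and batch, the log2 signals of both correlated with r = 0.14, a description with no test. The third probe set, 1427728_at, ran from 4.9 to 51.6 and reached the filter level on 0 of the 20 arrays, so that it bears on no change.

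Chrnd (1420761_at), the delta subunit, had its highest mean at 100 µM. Its signals were 466, 439, 487 and 484 untreated, 416, 567, 482 and 405 at 1 µM, 392.3, 488.5, 479.4 and 368.2 at 10 µM, 725, 499, 507 and 577 at 100 µM, and 318, 396, 428 and 472 at 1000 µM. The values at 100 µM lay above every untreated value and every one at 10 and 1000 µM, but overlapped those at 1 µM, while the group at 1000 µM overlapped the untreated one. From 100 to 1000 µM Chrnd fell by 0.52 (SE 0.14, 95% interval -0.81 to -0.22, adjusted p = 0.0415, n = 4). Against untreated it stood at 0.28 (SE 0.14, adjusted p = 0.477) at 100 µM and at -0.23 (SE 0.14, 0.318) at 1000 µM, and from 10 to 100 µM at 0.41 (SE 0.14, 0.288), none of them called. Between 100 and 1000 µM, 0 of the 7 tested probe sets rose and 2 fell, Chrnd and Chrng on 1452520_a_at, and for 3, these and Musk, the groups did not overlap. Across all tested probe sets 4.35% were called (0.744% higher and 3.6% lower) and 14.8% did not overlap.

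The array named 1 carried much of the Chrnd difference. Between the arrays named 1 the difference from 100 to 1000 µM was -1.19, and within replicates 2 to 4 it was -0.29, without overlap (adjusted p = 0.172). The call was also lost without 100 µM replicates 1 (0.144) or 4 (0.0958) or 1000 µM replicates 1 (0.125), 2 (0.0962) or 3 (0.0641), with median centring (-0.39, 0.104), after quantile normalization (-0.44, 0.102) and with no filter (0.0597).

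Chrnb1 (1420682_at), the beta subunit, showed no called change. Its untreated signals were 2363, 1790, 1670 and 1574, and at 1000 µM they were 1901, 1715, 1693 and 1681, within the untreated range. The difference was -0.07 (SE 0.14, 95% interval -0.35 to 0.22, adjusted p = 0.814). The array named 1 was the highest of its group at 5 of the 5 doses, and the difference turned to 0.02 (0.901) within replicates 2 to 4 and to 0.14 (0.576) with median centring. The lowest mean was at 1 µM, 1601 ± 401 (n = 4), a difference from untreated of -0.22 (SE 0.14, 0.815). Within replicates 2 to 4 that difference was -0.25, with overlap and not called. A moderated F-test for any change over the doses called Chrnb1 within replicates 2 to 4, though not over all arrays.

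Chrne (1420560_at), the adult epsilon subunit, was dim in every group. Its signals ran from 6.5 to 65.7, and it reached the filter level, the 40th percentile of an array (77.7 to 106), on 0 of the 20 arrays. The untreated values were 65.7, 41.6, 23.3 and 35.2, and those at 1000 µM were 38.1, 35.3, 10.2 and 31.8, so the groups overlapped. No level of Chrne can be set against that of Chrng, because probe sets of different genes are not on a common scale.

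Musk (1450511_at), the kinase that agrin activates, had the largest difference at 1000 µM among the 7 tested probe sets, and it missed the threshold. Its signals were 468, 333, 328 and 341 untreated, 488, 270, 293 and 330 at 100 µM, and 230, 242, 254 and 238 at 1000 µM. The 4 values at 1000 µM lay below every untreated value and every value at 100 µM. The difference from untreated was -0.59 (SE 0.20, 95% interval -1.02 to -0.17, adjusted p = 0.0659, n = 4), which is 33.7% lower, and that from 100 µM was -0.48 (SE 0.20, 0.206). In mean signal ± SD the order from low to high was 1000 µM (241 ± 10.1), 1 µM (305 ± 63.5), 100 µM (346 ± 98.4), 10 µM (351 ± 112) and untreated (367 ± 67.1), and the last 4 overlapped.

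The array named 1 was the highest for Musk in 3 of the 5 groups, untreated myotubes among them. Between the arrays named 1 the difference at 1000 µM was -1.02, and within replicates 2 to 4 it was -0.45 (SE 0.15, adjusted p = 0.0505). There the untreated signals were 334 ± 6.56 and those at 1000 µM 245 ± 8.53 (n = 3). Leaving out single arrays gave -0.64 to -0.47 (0.074 to 0.189), median centring -0.39 (0.178) and quantile normalization -0.44 (0.236). The difference was negative in every one of these fits.

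Rapsn (1449331_a_at), which encodes the receptor's anchoring protein, showed no called change at any dose. Its signals were 818, 974, 931 and 853 untreated and 676, 957, 937 and 933 at 1000 µM, and the groups overlapped. The difference was -0.04 (SE 0.12, 95% interval -0.29 to 0.21, adjusted p = 0.87). Between the arrays named 1 it was -0.28 and within replicates 2 to 4 it was 0.04, and it was 0.16 (0.443) with median centring and 0.03 (0.943) after quantile normalization. The lowest mean was again at 1 µM, 793 ± 74.1, which differed from untreated by -0.17 (SE 0.12, 0.84). Between the arrays named 1 that difference was 0.06. Within replicates 2 to 4 it was -0.25, without overlap and not called.

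Ache (1422635_at), the enzyme that breaks down acetylcholine, was dim on its 1 probe set. Its signals ran from 6.5 to 95.8 and reached the filter level on 1 of the 20 arrays, 1 µM replicate 1. They were 45.7, 53.0, 50.2 and 44.4 untreated and 46.4, 6.5, 29.4 and 45.9 at 1000 µM, which overlapped. No change of Ache could be measured at this signal.

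Against untreated myotubes, 1 of the 7 tested probe sets was called at 1000 µM, the fall of Chrng on 1452520_a_at, where 10.9% of all tested probe sets were called, 8.48% lower and 2.46% higher. The groups did not overlap for 3 of the 7, Chrna1, Chrng on 1452520_a_at and Musk, and for 20.5% of all tested probe sets. The median of the 7 differences was -0.07, the same as that of all tested probe sets to this precision. At 100, 10 and 1 µM limma called 0 of the 7, with 0 at an unadjusted p under 0.05 and 0 by a rule modelled on the design text (no overlap between groups and a mean change over 1.75-fold). The share of all tested probe sets called was 1.22% at 100 µM (0.862% higher and 0.355% lower), 0.00695% at 10 µM and 0% at 1 µM. The groups did not overlap for 1 of the 7 at 100 µM, Chrnd, against 8.98% of all, and for 0 of the 7 at 10 and 1 µM, against 4.07% and 3.78%. From 10 to 100 µM limma called 0 of the 7, against 0.932% of all (0.772% higher and 0.16% lower), with 1, Chrnd, at an unadjusted p under 0.05 and 0 by the modelled rule. Chrnd was also the 1 of 7 without overlap there, against 6.77% of all. A moderated F-test for any change over the doses called 0 of the 7, against 8.01% of all, with 2 at an unadjusted p under 0.05.

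**Figure D2:**
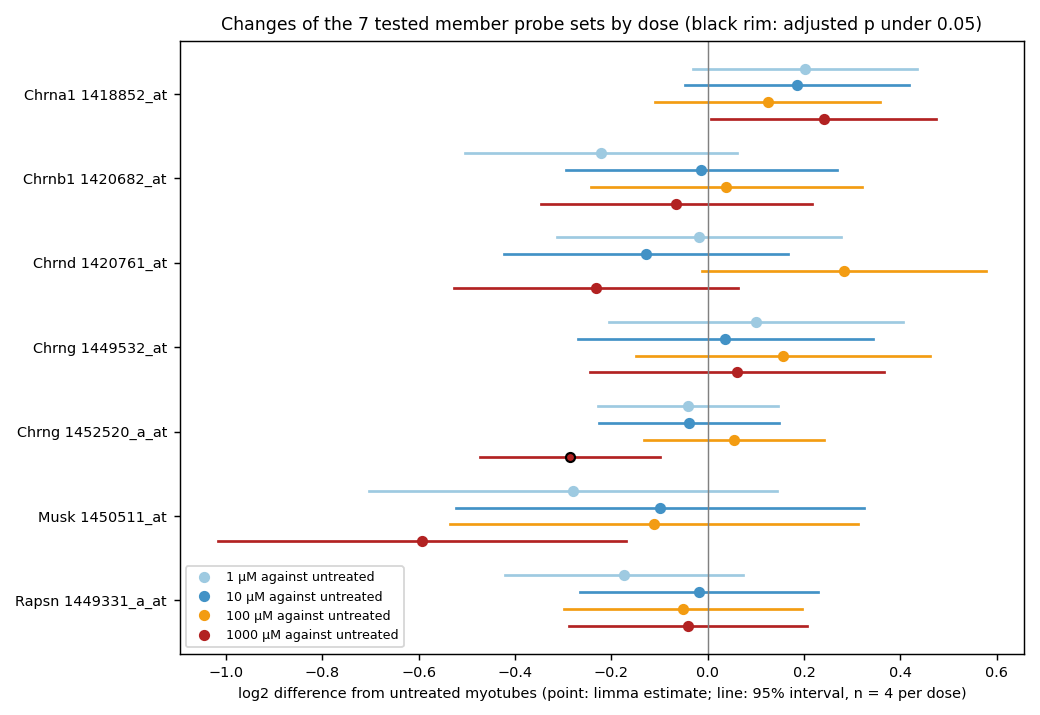
Log2 difference from untreated myotubes (x axis) of the 7 tested probe sets (y axis) at 4 doses, as limma's estimate with its 95% interval, n = 4 arrays per dose. The interval of Chrng on 1452520_a_at at 1000 µM runs from -0.47 to -0.10 and is the single called change, while that of Musk runs from -1.02 to -0.17 without a call.

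**Figure D3:**
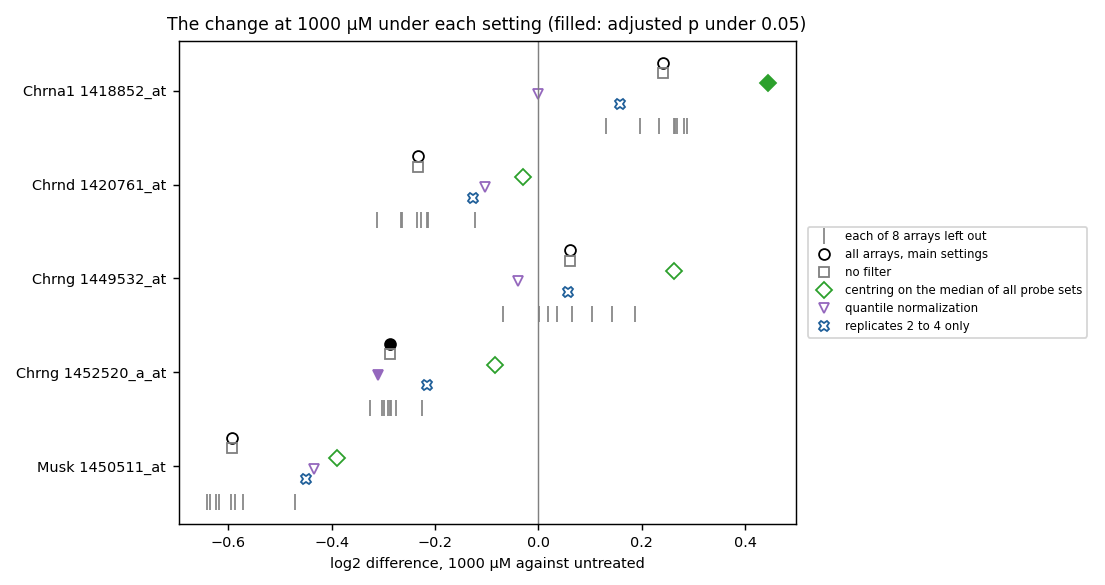
Log2 difference at 1000 µM against untreated (x axis) for 5 probe sets (y axis) under each scaling, filter and choice of arrays, filled where the adjusted p was under 0.05. The Musk difference stays between -0.64 and -0.39, and that of Chrna1 moves from -0.002 after quantile normalization to 0.44 with median centring.

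The list for agrin, MuSK and receptor clustering also held Nrg1, Erbb2, Erbb3 and Erbb4, and 24 of its 30 genes were tested. At 1000 µM 0 rose and 1 fell, against the same 2.64% and 8.05% of all genes, each gene being read on its brightest probe set. For 2 genes counted as not called, Crk and Erbb3, named after their values were seen, 1 other probe set was called lower. Calls on probe sets other than the brightest were not tried under other settings, here or in the lists below. Their share over all genes was not counted. The median difference of the 24 genes was -0.16, against -0.05 over all genes. The 1 that fell was Crkl, an adaptor recruited by DOK7 downstream of MuSK, by 0.26 (SE 0.08, adjusted p = 0.0385), and 0 of its other probe sets were called that way. Crkl was not called under median centring (0.632) or in 6 of the 8 fits without 1 array (0.0605 to 0.102), those that dropped untreated replicate 1, 3 or 4, or replicate 1, 2 or 3 at 1000 µM. It was also lost after quantile normalization (0.21), with no filter (0.0536) and within replicates 2 to 4 (0.0717). From 100 to 1000 µM, where 0.76% of all genes rose and 3.62% fell, Crkl was again the 1 gene called on its brightest probe set (Erbb3 was called lower on another), falling by 0.30 (SE 0.08, 0.0357), a call kept in 2 of 8 fits without 1 array, those without 100 µM replicate 3 or 1000 µM replicate 4 (otherwise 0.0563 to 0.114), and lost under both other scalings (0.206 and 0.104) and within replicates 2 to 4 (0.0738). Agrn, which encodes agrin itself, stood at -0.42 (SE 0.19, 0.171), and Lrp4, the agrin receptor, at -0.38 (SE 0.24, 0.344), neither of them called. At 100 µM 0 of the 24 were called by limma, with 2 at an unadjusted p under 0.05. Across all genes 0.993% rose and 0.404% fell there. Dok7 had no probe set with a single symbol.

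Of the genes of the synaptic membrane, its scaffold and its basal lamina, 20 of 28 were tested. At 1000 µM 0 rose and 3 fell on their brightest probe sets, with a median of -0.13. Across all genes 2.64% rose and 8.05% fell, with a median of -0.05. Among the listed genes counted as not called, other probe sets were called lower for 3, named after their values were seen: Dtna (2 of 5 others), Dag1 (1 of 3) and Nid1 (1 of 1). Ank3, ankyrin G, which gathers sodium channels at the synapse, fell by 0.92 (SE 0.22, adjusted p = 0.011; 0.0875 after quantile normalization), and 0 of its 2 other probe sets were called. Sntb1, beta-1 syntrophin of the dystrophin complex, fell by 0.61 (SE 0.17, 0.0248), with its other probe set called the same way. Its call ended under both other scalings (0.0671 and 0.117), and also when untreated replicate 1 or 2, or replicate 2 or 3 at 1000 µM, was left out (0.0569 to 0.0809). Utrn, utrophin, the dystrophin relative enriched at the synapse, fell by 0.39 (SE 0.11, 0.0347), also on 1 further probe set. That call ended under both other scalings (0.319 and 0.0953) and without any single array except untreated replicate 3 or 1000 µM replicate 1 (0.0538 to 0.116). At 100 µM limma called 0 of the 20, with 3 at an unadjusted p under 0.05, where 0.993% of all genes rose and 0.404% fell. Colq, the collagen tail that anchors acetylcholinesterase, was on the array but too dim to test.

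Among regulators that act on synaptic gene transcription, 23 of 28 were tested. At 1000 µM 1 rose and 4 fell on their brightest probe sets, with a median of -0.18. Of all genes 2.64% rose and 8.05% fell, with a median of -0.05. Among the regulators counted as not called, other probe sets were called lower for 3, named after their values were seen: Mef2c (4 of 4 others), Mef2a (3 of 4) and Tcf4 (2 of 4). These calls too were not tried under other settings. Myog, myogenin, which binds the E-boxes of receptor genes, stood at 0.15 (SE 0.07, adjusted p = 0.198) and was not called. Snai2, a zinc-finger repressor that binds E-box letters, fell by 1.27 (SE 0.30, 0.00951) at 1000 µM, and this held under each setting tried. Its differences at the other doses did not follow the dose and were not called: -1.12 (0.421) at 1 µM, -1.10 (0.941) at 10 µM and -0.27 (0.806) at 100 µM. Myod1 fell by 0.71 (SE 0.10, 0.000371) at 100 µM and by 0.51 (SE 0.10, 0.00344) at 1000 µM, where median centring ended the call (0.0893).

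The remaining calls among these regulators were close to the threshold. Gabpb1, the beta subunit of the ETS-family factor GABP, rose by 0.63 (SE 0.14, adjusted p = 0.0314) at 100 µM and by 0.47 (SE 0.14, 0.0408) at 1000 µM, on 1 of its 2 probe sets. The rise at 1000 µM was kept in 1 of 8 fits without 1 array, that without 1000 µM replicate 3, and that at 100 µM in 3, those without untreated replicate 4 or 100 µM replicates 2 or 3 (otherwise 0.051 to 0.113 and 0.0562 to 0.132). Mef2d, a MADS-box factor of muscle genes, fell by 0.36 (SE 0.11, 0.034) on 1 of its 2 probe sets, a call kept only without 1000 µM replicate 2 (otherwise 0.0556 to 0.0899). Six4, a homeobox factor, fell by 0.30 (SE 0.08, 0.0197), a call lost when untreated replicate 1, 2 or 4, or replicate 2 at 1000 µM, was left out (0.0513 to 0.0676). Median centring ended the calls of Mef2d (0.405) and Six4 (0.486), and quantile normalization that of Six4 (0.174). The calls of Gabpb1 held under both other scalings, while that at 1000 µM was lost with no filter (0.0617) and that at 100 µM within replicates 2 to 4 (0.0597). At 100 µM 0.993% of all genes rose and 0.404% fell.

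**Figure D4:**
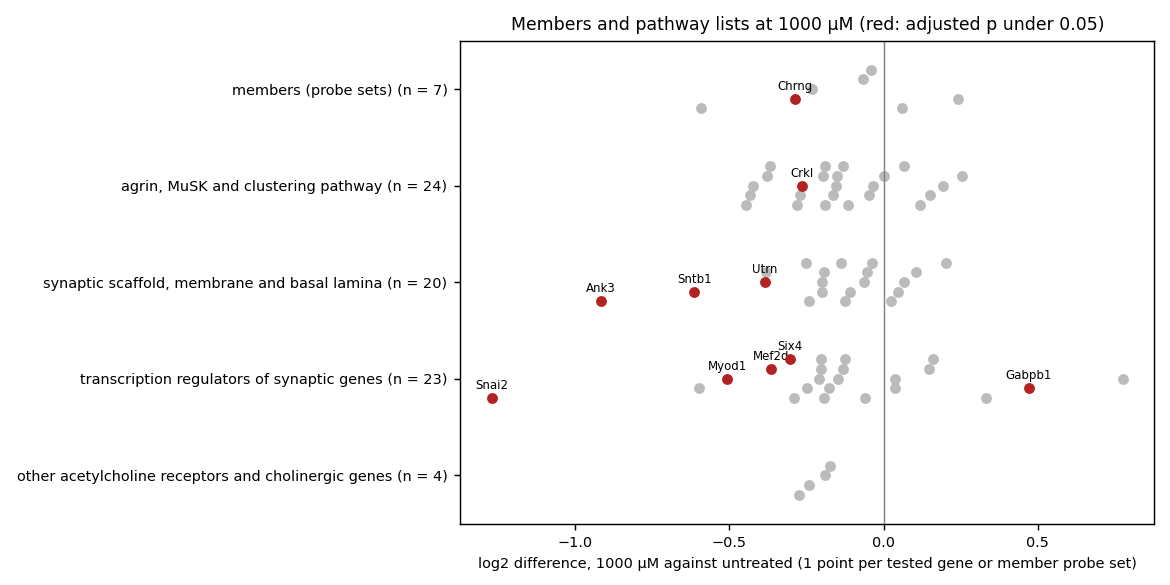
Log2 difference at 1000 µM against untreated (x axis), 1 point for each tested gene of 4 lists and for each of the 7 tested receptor and synapse probe sets (y axis), red where the adjusted p was under 0.05. Red points are 1 of 7 receptor and synapse probe sets, 1 of 24 clustering genes, 3 of 20 membrane and scaffold genes, 5 of 23 regulators and 0 of 4 other cholinergic genes. Across the array 10.9% of tested probe sets were called, and 2.64% of all genes rose and 8.05% fell.

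The genes whose pattern was most like a called member were found by the smaller of Pearson's r over all 20 arrays and over the 15 arrays named 2 to 4. For Chrng on 1452520_a_at these were Iffo1 (r = 0.84 and 0.80), Il17ra, a receptor of interleukin 17 (0.83 and 0.80), and Obsl1, a cytoskeletal adaptor (0.80 and 0.80). For Chrnd they were Tnfaip2 (0.84 and 0.79), Dusp10, a MAP kinase phosphatase (0.78 and 0.87), and Zscan12 (0.80 and 0.76). These were the highest of 13264 probe sets searched, and the arrays share dose, scale and batch, so the values are a description.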

How the data were processed

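Signals of 20 Affymetrix Mouse Genome 430A arrays were used, 4 for each of 5 doses, with groups taken from the sample titles; 1 title's misspelt unit was read as µM. The deposited values are intensity on a linear scale, computed per probe set with Affymetrix Microarray Suite 5.0, per the labels and the design text, already scaled by the authors to a common trimmed mean; detection calls were not used here. Small residual differences in the 2% trimmed mean were taken out before a floor of 1 and a log2 transform. A probe set was tested if 4 or more of the 20 arrays had it at or above that array's 40th percentile (64 control probe sets left out, 8247 filtered out) with limma 3.58.1 in R 4.3.3 (lmFit over all 5 groups, eBayes with an intensity trend), with Benjamini-Hochberg adjustment over all tested probe sets in each comparison. Standard errors and intervals come from that fit, and with arrays the 4 per group limit the precision. The scripts were tested on simulated data.

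Symbols came from the platform annotation; all 10 Entrez identifiers matched RefSeq. Where a listed gene had several tested probe sets, that of highest mean signal was used. All member probe sets are named, and from each list up to 6 genes called at 100 or 1000 µM, with Agrn, Lrp4, Dok7, Colq and Myog in any case. The genes, lists and tests were chosen with earlier results of these data known. No build is named for the array, so coordinates are those of the RefSeq promoter table.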

Additional observations from a re-analysis of the deposited data

Results flagged for a closer look

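In 5 of the 50 groups of 4 signals of the receptor and synapse probe sets, 1 array stood far from its neighbours relative to the range of its group; by chance about 1 in 20 groups would. Chrna1 at 10 µM replicate 4 was 9972, against 7478 for the next highest. Chrnb1 at 1000 µM replicate 1 was 1901, against 1715. Chrne at 10 µM replicate 1 was 34.9, against 11.1, both under the filter level. Musk in untreated replicate 1 was 467.5, against 340.8. Rapsn at 1000 µM replicate 1 was 676.4, the lowest, against 932.9 for the next. Of these 5 values 4 come from arrays named replicate 1 here, the set that stood apart over all probe sets. The one at 10 µM has no replicate number in its title.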

How the results depend on the processing

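The counts of called receptor and synapse probe sets at 1000 µM rest on values near the threshold. Against untreated, the count of 1 became 0 with no filter (Chrng adjusted p = 0.064), within replicates 2 to 4 and by the modelled crossed rule, and ranged from 0 to 1 when single arrays were left out; with median centring it was 1, but the call was Chrna1 and not Chrng. From 100 to 1000 µM, the count of 2 became 1 with no filter and after quantile normalization, 0 with median centring, within replicates 2 to 4 and by the crossed rule, and ranged from 0 to 2 without single arrays. The F-test count of 0 became 1 within replicates 2 to 4, where Chrnb1 passed. A floor of 16 changed no count. With the replicate number as a block (19 arrays), the count against untreated became 2, Chrng (adjusted p = 0.029) and Musk (0.0132), and no other count moved. Number 1 grouped its 4 arrays, but numbers 2 to 4 did not pair theirs. Deviations of same-numbered arrays correlated from 0.462 to 0.514 for number 1 but from -0.12 to 0.26 for numbers 2 to 4. Of 19 arrays 5, among them all 4 numbered 1, correlated best with their own number. Of 588 single changes under alternatives, 496 kept direction and side of the threshold, 27 lost the call, 2 gained it, 63 uncalled ones changed sign, and 0 called ones reversed. Signals under the filter level limit Chrne, Ache and 1 Chrng probe set.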

Other observations

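Among other acetylcholine receptors and cholinergic genes, 18 of 24 were on the array and 4 were bright enough to test: the neuronal subunits Chrna4 and Chrnb2, the choline transporter Slc44a1 and Lynx1, a membrane-anchored modulator of nicotinic receptors. At 1000 µM limma called 0 of these 4, with 1 at an unadjusted p under 0.05, and their median difference was -0.22. Across all genes 2.64% rose and 8.05% fell, and the median difference was -0.05. The neuronal subunits Chrna2, Chrna3, Chrna5, Chrna6, Chrna7, Chrnb3 and Chrnb4, and Bche, butyrylcholinesterase, were too dim to test.

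Between 100 and 1000 µM, 2 of the 23 tested regulators rose and 2 fell on their brightest probe sets, where 0.76% of all genes rose and 3.62% fell. They are named after their values were seen, as is Mef2c, counted as not called, with 3 of its 4 other probe sets called lower. Id2 and Id3, which bind E proteins and keep them from E-boxes, rose by 0.60 (SE 0.14, adjusted p = 0.0197) and 0.77 (SE 0.20, 0.0339), and Mef2d (-0.40, SE 0.11, 0.0387) and Six4 (-0.29, SE 0.08, 0.0415) fell. The call of Id2 ended without 100 µM replicate 1 or 1000 µM replicates 1 or 2 (0.0582 to 0.0633). That of Id3 ended without any single array except 100 µM replicate 3 or 1000 µM replicate 1 (0.0558 to 0.117). Mef2d was kept only without 100 µM replicate 3 or 1000 µM replicate 2 (otherwise 0.0538 to 0.133). Six4 was kept only without 100 µM replicate 4 (otherwise 0.0671 to 0.138). With median centring Mef2d (0.23) and Six4 (0.3) were not called. With no filter Id3 (0.0578), Mef2d (0.0537) and Six4 (0.0586) were not, nor was Six4 after quantile normalization (0.166) or Mef2d within replicates 2 to 4 (0.065).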
